A study of Mus musculus with 9 samples.

Results

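The proteasome subunit genes described here are the mouse protein-coding genes whose symbol starts with Psma, Psmb, Psmc, Psmd, Psme, Psmf or Psmg followed by a digit, 51 of 21887 protein-coding genes on the main chromosomes of GRCm38.p6. They were chosen by name and not by any value below, though earlier results of these data were known when the choice was made. Of the 51, 48 encode a subunit, an activator, an inhibitor or an assembly chaperone of the proteasome. The other 3, Psmc3ip, Psme2b and Psme3ip1, match the pattern without encoding a known part of the particle and are given separately.

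Lung endothelial cells were isolated from wild-type mice, and ACT-seq was run on them for 7 acetylated histone residues (H2AK5ac, H4K8ac, H3K27ac, H3K23ac, H3K18ac, H3K14ac and H3K9ac), for H3K4me3 and for IgG as a control. In this assay an antibody holds a transposase next to a histone mark, where the enzyme cuts the DNA and adds sequencing adaptors. All 9 targets come from the same kind of cell and genotype, with no treated or mutant group and no treatment named. With 1 library for each target there is no replicate error, so the values are given without tests or p-values. The labels give neither the age or number of the mice nor how the cells were isolated.

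The deposited table holds 9 columns of read counts, with totals of 365999 for IgG to 10044130 for H3K14ac. It also holds 8 lists of enriched regions (peaks), which are the main material here. The table does not name the lists, and each carries here the name of the mark to which its size is attributed, from 578465 peaks for H3K14ac to 48943 for H3K9ac, and IgG has none. A gene counts as having a peak where at least 1 base of a list lies within 2 kb on either side of one of its ends, and covered bases are the bases of these windows that lie in peaks. The windows of short genes merge and hold fewer bases, and a peak within reach of a neighbouring gene counts for both. As a check of the labelled cell type, 8 of 12 endothelial marker genes had peaks of all 8 lists, against 31.1% of all protein-coding genes. The counts were 0 of 10 for leukocytes, 2 of 10 for lung epithelium and 0 of 8 for mesenchyme. Mean numbers of lists were 6.83 for endothelium, 3.5 for leukocytes, 4.8 for epithelium and 4.625 for mesenchyme, against 4.92 over all genes. The endothelial marker Cldn5 had no peak of any list, nor had the leukocyte marker Laptm5. Ptprc, which defines leukocytes, had a peak of H3K14ac alone, but the leukocyte marker Cd68 had 7 lists and Cd79a and Coro1a 6 each. Krt8, Foxj1 and Scgb1a1 of the epithelial markers and Acta2 and Col1a1 of the mesenchymal ones had 7 lists each. The epithelial marker Sftpc did have peaks of all 8 lists, and the part of other cells in the values of the proteasome genes was not tested.

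The proteasome degrades proteins tagged with ubiquitin. Its core is a barrel of alpha rings, which gate the entrance, and beta rings, which carry the proteolytic sites, and it is capped by a regulatory particle whose ATPases unfold the substrate. Interferon induces a second set of catalytic beta subunits, which form the immunoproteasome and change the peptides made for antigen presentation. When proteasomes are inhibited, the transcription factor NFE2L1 raises the subunit genes together through antioxidant response elements in their promoters.

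The promoters of 7 genes, with a pair of starts for Psma6, are printed because the comparisons of peaks name these genes. No difference in peaks was tested against sequence. The sequences are the given strand of RefSeq GRCm38.p6 from 250 bases before to 50 after an annotated start, 5′ to 3′, with matches to any of the motifs named next in capitals. The motifs, searched on both strands, were TGACNNNGC (core of the antioxidant response element), GAAA repeated after a gap of 2 bases (core of the interferon-stimulated response element), CCAAT (bound by NF-Y), CCGGAAG (bound by ETS factors) and TTCNNNGAA (bound by STAT factors). Psmb5 and Psmb6 are shown as constitutive catalytic subunits of unequal peak coverage, Psmb8 and Psmb9 as immunoproteasome subunits, and Psme1 as an interferon-inducible activator. Psmc2 is shown as the ATPase gene with the most H3K4me3 coverage, and both annotated starts of Psma6 because only the downstream one has an H3K4me3 peak within 2 kb.
Psmb5 promoter, chr14:54617946-54618245, minus strand: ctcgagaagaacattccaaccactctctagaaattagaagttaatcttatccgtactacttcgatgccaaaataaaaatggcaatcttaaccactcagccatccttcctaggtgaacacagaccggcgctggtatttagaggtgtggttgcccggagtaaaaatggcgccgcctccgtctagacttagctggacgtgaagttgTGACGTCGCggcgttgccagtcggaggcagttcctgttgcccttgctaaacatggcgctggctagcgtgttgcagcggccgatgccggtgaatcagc
Psmb6 promoter, chr11:70525107-70525406, plus strand: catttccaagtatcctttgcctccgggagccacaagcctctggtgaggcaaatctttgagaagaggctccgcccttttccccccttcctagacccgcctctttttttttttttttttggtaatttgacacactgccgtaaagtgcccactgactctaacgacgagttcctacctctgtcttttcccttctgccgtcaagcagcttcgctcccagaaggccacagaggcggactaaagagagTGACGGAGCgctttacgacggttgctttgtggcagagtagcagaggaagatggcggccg
Psmb8 promoter, chr17:34197945-34198244, plus strand: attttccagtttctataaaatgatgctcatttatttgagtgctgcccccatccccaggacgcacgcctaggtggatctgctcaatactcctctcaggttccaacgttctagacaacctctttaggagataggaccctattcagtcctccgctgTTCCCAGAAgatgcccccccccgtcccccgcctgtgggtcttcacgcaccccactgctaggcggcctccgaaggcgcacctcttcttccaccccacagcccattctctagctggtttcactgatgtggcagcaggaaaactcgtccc
Psmb9 promoter, chr17:34187281-34187580, minus strand: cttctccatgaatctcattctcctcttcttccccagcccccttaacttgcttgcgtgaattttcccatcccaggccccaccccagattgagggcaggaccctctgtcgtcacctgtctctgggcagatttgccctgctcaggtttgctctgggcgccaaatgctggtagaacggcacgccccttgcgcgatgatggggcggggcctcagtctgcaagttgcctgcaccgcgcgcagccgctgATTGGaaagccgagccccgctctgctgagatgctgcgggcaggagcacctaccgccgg
Psme1 promoter, chr14:55578244-55578543, plus strand: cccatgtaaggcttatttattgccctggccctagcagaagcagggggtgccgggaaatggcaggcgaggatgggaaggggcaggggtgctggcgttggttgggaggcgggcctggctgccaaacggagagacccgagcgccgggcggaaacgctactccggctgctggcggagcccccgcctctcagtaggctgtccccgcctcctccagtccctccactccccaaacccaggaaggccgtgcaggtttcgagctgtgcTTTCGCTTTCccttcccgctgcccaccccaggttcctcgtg
Psmc2 promoter, chr5:21785025-21785324, plus strand: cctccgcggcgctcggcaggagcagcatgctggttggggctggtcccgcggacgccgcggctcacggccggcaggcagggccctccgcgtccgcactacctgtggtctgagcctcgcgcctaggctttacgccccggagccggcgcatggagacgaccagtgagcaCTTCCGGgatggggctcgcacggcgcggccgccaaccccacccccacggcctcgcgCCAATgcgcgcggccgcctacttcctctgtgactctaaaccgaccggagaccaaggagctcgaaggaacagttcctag
Psma6 promoter, chr12:55383972-55384271, plus strand: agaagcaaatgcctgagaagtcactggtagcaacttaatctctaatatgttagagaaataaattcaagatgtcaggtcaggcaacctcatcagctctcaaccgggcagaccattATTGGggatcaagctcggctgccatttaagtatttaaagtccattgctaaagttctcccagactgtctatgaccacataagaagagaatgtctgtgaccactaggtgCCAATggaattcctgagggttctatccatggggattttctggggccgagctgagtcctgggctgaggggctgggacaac
Psma6 promoter, chr12:55398575-55398874, plus strand: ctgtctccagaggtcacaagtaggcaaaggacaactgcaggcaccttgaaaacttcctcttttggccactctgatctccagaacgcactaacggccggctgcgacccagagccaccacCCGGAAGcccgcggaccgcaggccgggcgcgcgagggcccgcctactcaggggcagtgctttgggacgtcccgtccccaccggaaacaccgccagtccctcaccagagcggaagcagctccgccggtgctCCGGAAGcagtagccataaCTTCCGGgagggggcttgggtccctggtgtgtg

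The promoter table matched 43 of the 51 genes, and Psma8, Psmb1, Psmb2, Psmb7, Psmc3, Psmd3, Psmd7 and Psmg2 were not in it. CCGGAAG was found in the promoters of 16 of 43 proteasome genes (37.2%), against 12.9% of all 17492 genes with a promoter. A gene counts once, whatever the number of its starts or of overlapping matches. The interferon core was found in 5 (11.6%, against 3.94%), in Psmb3, Psmd4, Psmd9, Psme1 and Psmg4. TGACNNNGC was found in 6 of 43, a share slightly below the 14.8% of all promoters. The 6 genes were Psmb5, Psmb6, Psmc6, Psmd9, Psmd12 and Psme4. CCAAT was found in 16 (37.2%, against 42.3%) and TTCNNNGAA in 3 (6.98%, against 8.92%). CCGGAAG holds a CG, and proteasome promoters had a median of 19 CG dinucleotides, against 13 in all promoters, so the shares for this motif are not matched for base composition. A motif match is a string of letters and not evidence of binding, and a missing match says nothing of the factor. No count of motifs was tested.

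Positions are counted from the start, whose base is 0, with negative numbers upstream. In Psmb5 the antioxidant core reads TGACGTCGC and lies at -47 to -39, and in Psmb6 it reads TGACGGAGC and lies at -9 to -1. Both lie inside a peak of H3K4me3, which runs from -317 to 622 in Psmb5 and from -313 to 146 in Psmb6. All 6 genes with this core had an H3K4me3 peak within 2 kb of a start, with a median of 823.5 covered bases, against 35 of 37 genes without it and a median of 923. In Psme1 the interferon core reads TTTCGCTTTC on the given strand, at 9 to 18. The Psmb8 promoter holds a STAT core, TTCCCAGAA, at -97 to -89. Psmb9 held neither the interferon nor the STAT core in this window.

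Most proteasome genes carried most of the marks at their ends. H3K14ac had a peak in 50 of 51 genes (98.0%), against 85.0% of all protein-coding genes. H4K8ac had one in 49 (96.1%, against 66.9%), H3K27ac in 48 (94.1%, against 63.1%), and H3K18ac in 47 (92.2%, against 68.4%). H3K4me3, a mark of active and poised promoters, had a peak in 47 genes (92.2%, against 61.5%), H3K23ac in 45 (88.2%, against 57.4%) and H3K9ac in 44 (86.3%, against 50.3%). H2AK5ac stood apart from the other marks, with a peak in 26 genes (51.0%, against 39.8%). Peaks of all 8 lists were found in 24 genes (47.1%, exact 95% binomial interval 32.9 to 61.5%), against 31.1% of all genes. That interval treats genes as independent draws and covers counting error only.

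**Figure D1:**
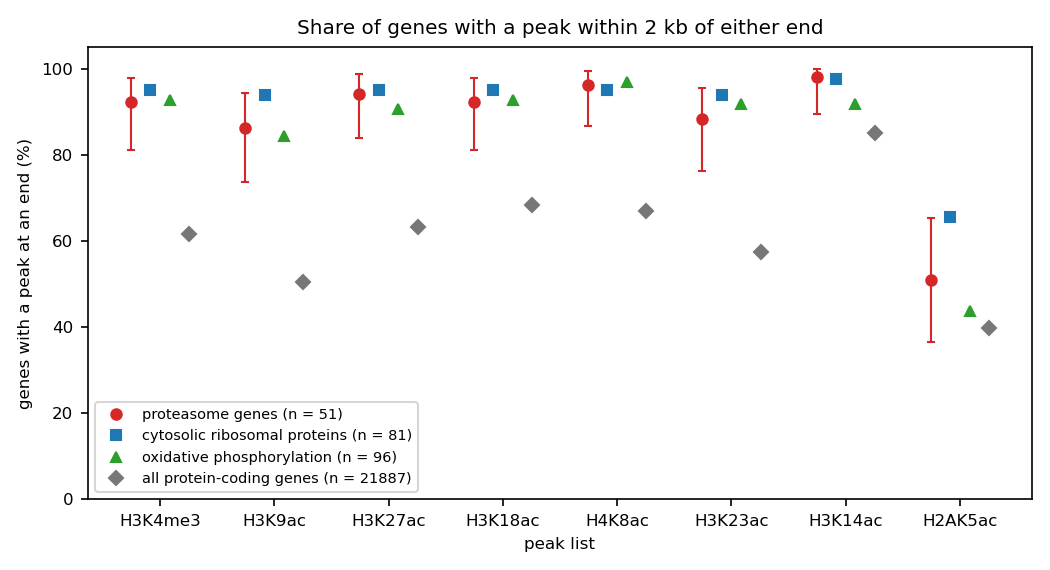
Share of genes with a peak within 2 kb of either end (y axis, percent) for each of the 8 peak lists (x axis). Circles are the 51 proteasome genes with exact 95% binomial intervals, squares 81 cytosolic ribosomal protein genes, triangles 96 oxidative phosphorylation genes and diamonds all 21887 protein-coding genes; 7 lists lie between 86.3 and 98.0% in the proteasome genes and H2AK5ac at 51.0%.

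Counted by gene, the mean number of lists was 6.98 for the 51 proteasome genes (SD 1.63), against 4.92 for all genes (SD 3.00). A further 20 genes had peaks of 7 lists (39.2%, against 16.6% of all genes), and 7 genes had peaks of 6 or fewer. Of these 7, 1 had 6 lists (1.96%, against 6.25%), 1 had 5 (1.96%, against 5.19%) and 2 had 4 (3.92%, against 4.50%). A further 2 had 2 lists (3.92%, against 8.23%) and 1 had 1 (1.96%, against 13.5%). No proteasome gene lacked peaks of every list, against 9.33% of all protein-coding genes. The 81 cytosolic ribosomal protein genes and the 96 oxidative phosphorylation genes, housekeeping families of comparable kind, had means of 7.31 and 6.84 lists and carried all 8 in 61.7% and 38.5% of their genes. The proteasome genes lay between both families in each of these measures, and the differences were not tested.

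The list most often missing was H2AK5ac. Peaks of the 7 other lists were present in 43 of 51 proteasome genes (84.3%), against 44.4% of all genes. Of these 43, 24 (55.8%) also had an H2AK5ac peak, against 70.0% of all genes with the 7 others, 67.6% of ribosomal protein genes and 49.3% of oxidative phosphorylation genes. Expressed over all genes, 19 proteasome genes (37.3%) had the 7 others without H2AK5ac, against 13.3% of protein-coding genes. Where H2AK5ac was present it was narrow. In 14 of the 26 proteasome genes that had H2AK5ac, it was a single peak of 129 bp, the minimum width in that list. The same held for 3854 of the 8702 protein-coding genes that had it. Its median was 129 bp in the proteasome genes that had it, against 177.5 bp over all genes that had it. Narrow peaks were common in the list as a whole, where 76.1% of H2AK5ac peaks were at minimum width. With minimum-width peaks left out, H2AK5ac was found in 4 genes (7.84%, against 12.7%) and all 8 lists in 3 (5.88%, against 9.96%), while the other lists kept most of their genes. H3K27ac was then found in 47 (92.2%, against 60.4%), H3K4me3 in 46 (90.2%, against 55.0%), H4K8ac in 46 (90.2%, against 55.9%) and H3K18ac in 44 (86.3%, against 58.5%). H3K14ac was found in 42 (82.4%, against 56.0%), H3K9ac in 40 (78.4%, against 39.8%) and H3K23ac in 38 (74.5%, against 40.2%).

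H3K4me3 covered the most bases. Its median over the 51 genes was 931 bp, against 539 bp over all genes. It covered more bases than any other list in 33 of the 51, a count that was not made over all genes. H3K23ac followed with 805 bp (against 206), H3K9ac with 778 bp (against 113) and H4K8ac with 742 bp (against 344). H3K27ac covered a median of 631 bp (against 327), H3K18ac 579 bp (against 333), H3K14ac 568 bp (against 442) and H2AK5ac 129 bp (against 0). These medians compare genes within a list. Lists differ in depth and in minimum width, from 102 bp for H4K8ac to 206 bp for H3K23ac, so the order of lists is a description of the deposited peaks.

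**Figure D2:**
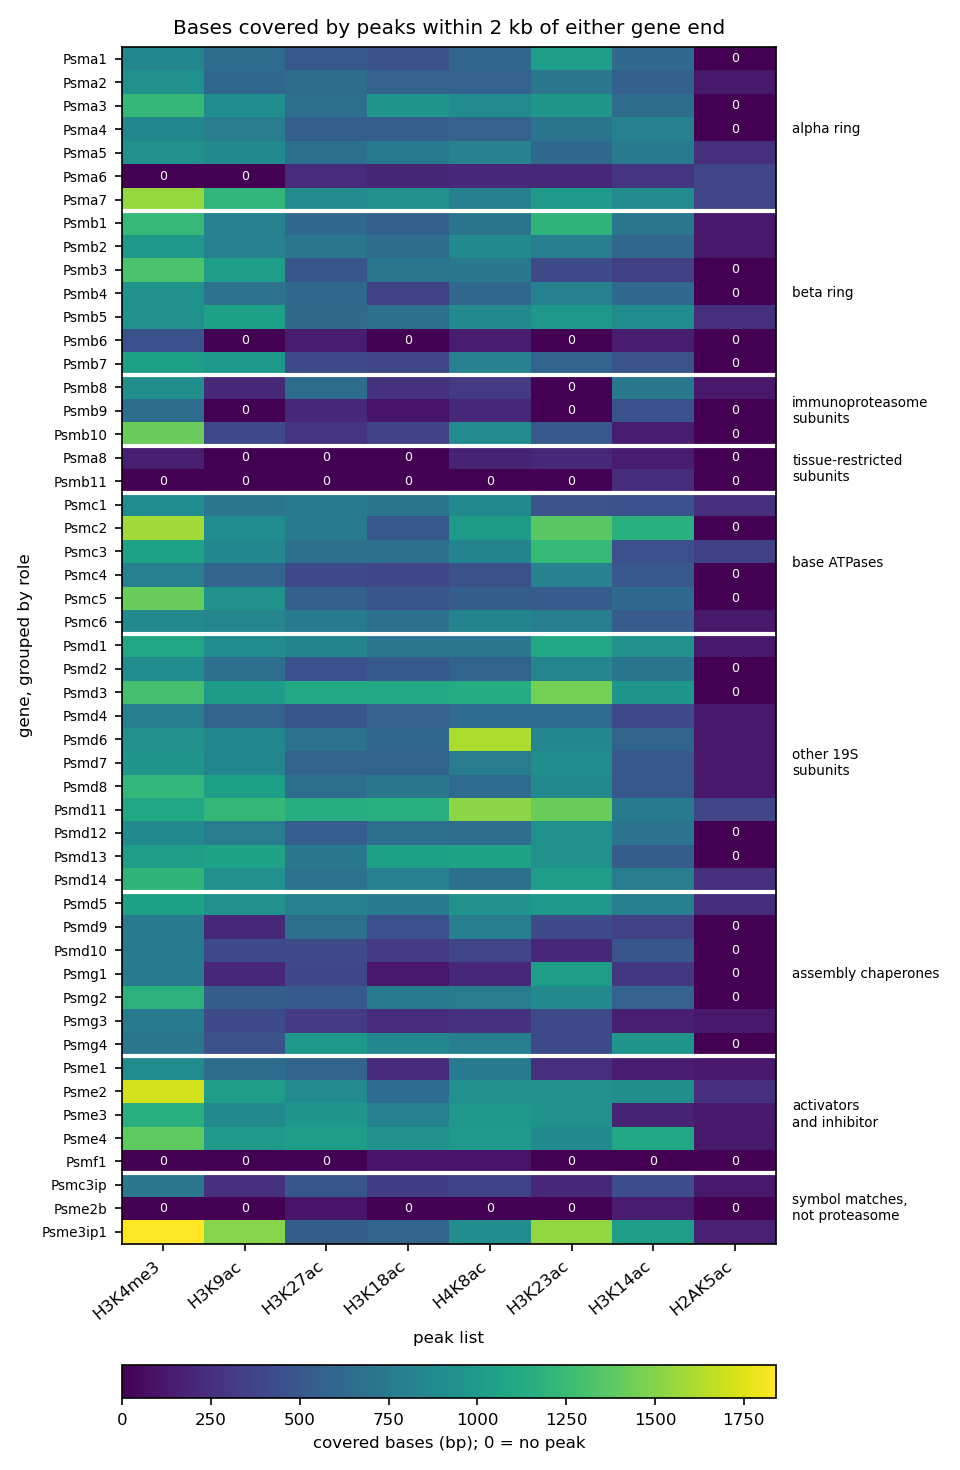
Bases covered by peaks within 2 kb of either gene end (colour, bp) for the 51 genes in rows, grouped by role, and the 8 peak lists in columns; 0 marks a gene with no peak of that list. The H3K4me3 column reaches 1840 bp in Psme3ip1 and is 0 in Psma6, Psmb11, Psmf1 and Psme2b, and the H2AK5ac column does not pass 388 bp.

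Across the 51 genes, covered bases of H3K27ac and H3K18ac ranked most alike (Spearman's rho 0.825, against 0.928 over all genes), followed by H3K9ac and H3K4me3 (0.824, against 0.859). H2AK5ac ranked least like the others, with rho from 0.234 with H3K14ac to 0.482 with H3K27ac, against 0.528 to 0.656 over all genes. These coefficients describe genes within 1 set of libraries, which share their window lengths and promoter composition, and genes are not replicates.

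The 7 alpha ring genes averaged 7.29 lists (SD 0.76), and 3 of them had all 8. Psma1, Psma3 and Psma4 lacked H2AK5ac alone at their ends, though Psma3 had an H2AK5ac peak of 129 bp near its annotated start inside the gene. Psma7 (chromosome 2, 180036367 to 180042464, minus strand) had the most H3K4me3 of the ring. Its ends were covered by 1546 bp of H3K4me3, 1209 bp of H3K9ac, 885 bp of H3K27ac, 931 bp of H3K18ac, 793 bp of H4K8ac, 993 bp of H3K23ac, 885 bp of H3K14ac and 387 bp of H2AK5ac. Its start lies 19 bp from that of Ss18l1 on the opposite strand, and the H3K4me3 peak spans both starts. Psma6 (chromosome 12, 55384222 to 55418459, plus strand) had the least, with 0 bp of H3K4me3 and H3K9ac at its ends and 388 bp of H2AK5ac, the highest H2AK5ac value among the 51. Of the other lists at the Psma6 ends, H3K14ac covered 276 bp, H3K27ac 237 bp, H3K23ac 206 bp, H4K8ac 204 bp and H3K18ac 194 bp.

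The low values of Psma6 belong to its upstream annotated start. The promoter there holds 3 CG dinucleotides and a pair of CCAAT matches, and the promoter of the second annotated start holds 22 and 3 matches to CCGGAAG. An H3K4me3 peak of 1172 bp (chr12:55398586-55399757) begins 14364 bases downstream of the first start and covers the second. With both starts counted, all 8 lists had peaks within 2 kb, with 1172 bp of H3K4me3, 684 bp of H3K9ac, 816 bp of H3K27ac, 1085 bp of H3K18ac, 754 bp of H4K8ac, 1213 bp of H3K23ac, 847 bp of H3K14ac and 517 bp of H2AK5ac. The window of gene ends therefore missed the marked start of this gene.

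The 7 constitutive beta ring genes averaged 7.00 lists (SD 1.41), and 3 had all 8. Psmb3, a structural subunit, had the most H3K4me3 with 1317 bp, and Psmb6 the least with 460 bp. Psmb3 and Psmb4, also structural, lacked H2AK5ac alone. The 3 catalytic genes differed widely. Psmb5, the chymotrypsin-like subunit (chromosome 14, 54614120 to 54617995, minus strand), had all 8 lists: 940 bp of H3K4me3, 1048 bp of H3K9ac, 633 bp of H3K27ac, 679 bp of H3K18ac, 873 bp of H4K8ac, 981 bp of H3K23ac, 892 bp of H3K14ac and 258 bp of H2AK5ac. Psmb7, the trypsin-like subunit (chromosome 2, 38588046 to 38643952), lacked H2AK5ac alone and had 1038 bp of H3K4me3, 980 bp of H3K9ac, 418 bp of H3K27ac, 383 bp of H3K18ac, 817 bp of H4K8ac, 596 bp of H3K23ac and 470 bp of H3K14ac. Psmb6, the caspase-like subunit (chromosome 11, 70525324 to 70527858, plus strand), had 4 lists: 460 bp of H3K4me3, 147 bp of H3K27ac, 144 bp of H4K8ac and 138 bp of H3K14ac. No peak of H3K9ac, H3K18ac, H3K23ac or H2AK5ac lay at Psmb6, nor anywhere over its span. Its value was lower than that of Psmb5 and Psmb7 in each of the lists that all 3 genes share, and each of these values comes from 1 library.

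The immunoproteasome genes, which replace these catalytic subunits, had peaks of 5 to 7 lists and none had all 8. Psmb8, the counterpart of Psmb5 (chromosome 17, 34198195 to 34201454, plus strand), had 916 bp of H3K4me3, 204 bp of H3K9ac, 650 bp of H3K27ac, 266 bp of H3K18ac, 312 bp of H4K8ac, 747 bp of H3K14ac, 129 bp of H2AK5ac and no H3K23ac. Within 2 kb of its start, it had 5 lists, since its H3K9ac peak begins 4476 bases downstream and its H2AK5ac peak also lies outside that window. Psmb9, the counterpart of Psmb6 (chromosome 17, 34182030 to 34187330, minus strand), had 653 bp of H3K4me3, 211 bp of H3K27ac, 104 bp of H3K18ac, 204 bp of H4K8ac and 465 bp of H3K14ac, and no H3K9ac, H3K23ac or H2AK5ac. Its start lies 226 bp from that of Tap1, which encodes a chain of the peptide transporter of antigen presentation. Tap1 had peaks of the same 5 lists. The widest Psmb9 peak of each of these lists lies within 2 kb of the Tap1 start, so the same peaks count for both genes. Psmb10, the counterpart of Psmb7 (chromosome 8, 105935728 to 105938392, minus strand), had 1417 bp of H3K4me3, 408 bp of H3K9ac, 280 bp of H3K27ac, 355 bp of H3K18ac, 886 bp of H4K8ac, 509 bp of H3K23ac, 138 bp of H3K14ac and no H2AK5ac.

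H3K4me3 and the acetylations ranked the counterparts unequally. Psmb10 had more H3K4me3 than Psmb7 and less H3K9ac, H3K27ac, H3K18ac, H3K23ac and H3K14ac, and H4K8ac was higher in Psmb10. Psmb8 differed from Psmb5 by less than 30 bp in H3K4me3 and H3K27ac and was lower in H3K9ac, H3K18ac, H4K8ac and H3K14ac. Within 2 kb of the start alone, H3K27ac covered 141 bp in Psmb8, against 633 bp in Psmb5. Psmb9 exceeded Psmb6 in each of the 4 lists found at Psmb6. Of the 653 bp of H3K4me3 at Psmb9, 343 bp are a peak at -1257 to -915, inside Tap1. Without that peak Psmb9 would fall below the 460 bp of Psmb6. The H3K4me3 peak of Psmb10 ran from 74 to 1490, wholly inside the gene, whereas that of Psmb8 ran from -583 to 332. The Psmb10 promoter was among the poorest in CG, with 3 dinucleotides, and Psmb8 and Psmb9 held 11 and 17.

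**Figure D3:**
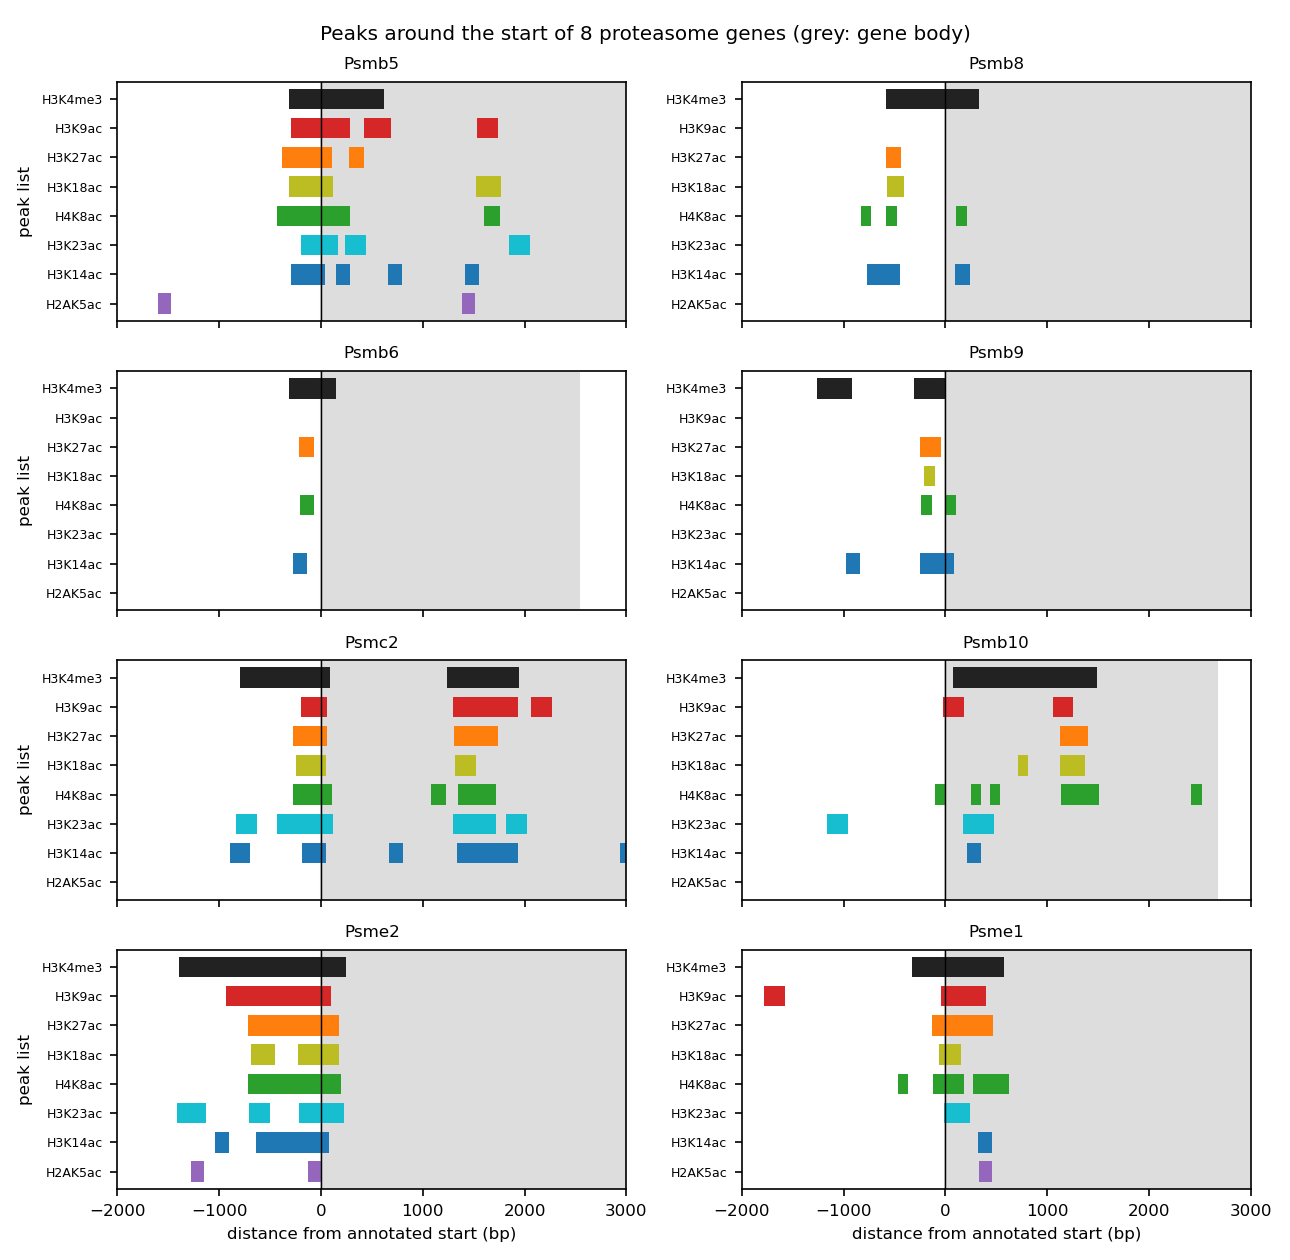
Peaks of the 8 lists (rows) by distance from the annotated start (x axis, bp, transcribed direction to the right; gene body in grey) at 8 proteasome genes. At Psmb6 and Psmb9 the H3K9ac, H3K23ac and H2AK5ac rows are empty, the H3K4me3 peak of Psmb10 lies between 74 and 1490 bases after the start, and Psmc2 has a second group of peaks past 1000 bases.

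The 2 tissue-restricted subunits had 2.5 lists on average, the fewest of the role groups. Psmb11, the catalytic subunit of thymic epithelium (chromosome 14, 54625310 to 54629556), had 240 bp of H3K14ac and 0 bp of the other 7 lists, at its ends and over its span. Psma8, the counterpart of Psma7 in the testis, had 157 bp of H3K4me3, 206 bp of H3K23ac, 185 bp of H4K8ac and 138 bp of H3K14ac at its ends, and 0 bp of the other 4 lists. Its H3K4me3, H3K23ac and H3K14ac values each equal 1 peak of minimum width. Over the span of Psma8, 56167 bp long, all 8 lists had a peak, with 542 bp of H3K4me3 and 1805 bp of H3K14ac.

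The 6 ATPases of the regulatory particle averaged 7.50 lists (SD 0.55), and 3 had all 8. Psmc2 had the most H3K4me3 (chromosome 5, 21785275 to 21803787, plus strand), with 1586 bp, beside 895 bp of H3K9ac, 766 bp of H3K27ac, 509 bp of H3K18ac, 1001 bp of H4K8ac, 1372 bp of H3K23ac, 1166 bp of H3K14ac and no H2AK5ac. It has a pair of annotated starts, each with CTTCCGG, the reverse complement of the ETS motif, at -84 to -78 of the first and -24 to -18 of the second. Psmc4 had the least H3K4me3, with 799 bp, beside 603 bp of H3K9ac, 406 bp of H3K27ac, 394 bp of H3K18ac, 456 bp of H4K8ac, 819 bp of H3K23ac, 497 bp of H3K14ac and no H2AK5ac. Psmc2 was higher than Psmc4 in the 7 lists both genes had. Psmc5 also lacked H2AK5ac, and Psmc1, Psmc3 and Psmc6 had all 8 lists.

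The 11 other subunits of the regulatory particle had the highest mean of the role groups. All of them had 7 or 8 lists (mean 7.64, SD 0.50), 7 had all 8, and Psmd2, Psmd3, Psmd12 and Psmd13 lacked H2AK5ac alone. Psmd3, a lid subunit, had the most H3K4me3 with 1300 bp, beside 1012 bp of H3K9ac, 1108 bp of H3K27ac, 1107 bp of H3K18ac, 1136 bp of H4K8ac, 1457 bp of H3K23ac and 968 bp of H3K14ac. Psmd4, a ubiquitin receptor, had the least with 790 bp, beside 588 bp of H3K9ac, 494 bp of H3K27ac, 576 bp of H3K18ac, 643 bp of H4K8ac, 641 bp of H3K23ac, 414 bp of H3K14ac and 129 bp of H2AK5ac. The H2AK5ac peak of Psmd4 lay at its far end. H4K8ac was broadest in Psmd6 and Psmd11, both lid subunits, with 1614 and 1522 bp. In both genes a cluster of H4K8ac peaks continued past the start, to 1986 bases in Psmd6 and 2069 in Psmd11. Psmd14, the deubiquitinase of the lid, had all 8 lists with 1207 bp of H3K4me3.

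The 7 assembly chaperones averaged 7.29 lists (SD 0.49), and all had the 7 lists other than H2AK5ac. Psmd5 and Psmg3 also had H2AK5ac, and Psmd9, Psmd10, Psmg1, Psmg2 and Psmg4 did not. Their median H3K9ac was 425 bp, against 819 bp in the beta ring genes and 894 bp in the non-ATPase subunits of the regulatory particle. Psmg1, which helps to build the alpha ring, had 763 bp of H3K4me3, 214 bp of H3K9ac, 391 bp of H3K27ac, 120 bp of H3K18ac, 208 bp of H4K8ac, 1034 bp of H3K23ac and 297 bp of H3K14ac. Its partner Psmg2 had 1182 bp of H3K4me3, 544 bp of H3K9ac, 519 bp of H3K27ac, 750 bp of H3K18ac, 781 bp of H4K8ac, 878 bp of H3K23ac and 581 bp of H3K14ac. Psmg3 and Psmg4, which act together at the same step, differed in H3K27ac, H3K18ac and H3K14ac. Psmg4 had 983 bp of H3K27ac, 857 bp of H3K18ac and 949 bp of H3K14ac, against 329, 236 and 152 bp in Psmg3, while H3K4me3 was 721 bp in Psmg4 and 756 bp in Psmg3. H3K9ac covered 454 bp in Psmg4 and 425 bp in Psmg3, and H3K23ac 412 bp in each. Of the Psmg4 values, 342 bp of H3K27ac, 378 bp of H3K18ac and 350 bp of H3K14ac lay at the end of the gene away from its start. Of the chaperones of the ATPase ring, Psmd5 had 1045 bp of H3K4me3 and 934 bp of H3K9ac, Psmd9 750 and 204 bp, and Psmd10 765 and 408 bp.

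Of the activators, Psme1 to Psme4 all had 8 lists. Psme1 and Psme2 encode the interferon-inducible ring that opens the core, and they lie near each other on chromosome 14. Psme1 (55578494 to 55581527, plus strand) had 897 bp of H3K4me3, 651 bp of H3K9ac, 595 bp of H3K27ac, 216 bp of H3K18ac, 754 bp of H4K8ac, 255 bp of H3K23ac, 138 bp of H3K14ac and 129 bp of H2AK5ac. Psme2 (55587440 to 55591101, minus strand) had more in each list: 1716 bp of H3K4me3, 1032 bp of H3K9ac, 887 bp of H3K27ac, 644 bp of H3K18ac, 933 bp of H4K8ac, 933 bp of H3K23ac, 916 bp of H3K14ac and 258 bp of H2AK5ac. The start of Psme2 lies 641 bp from that of Rnf31 on the opposite strand, and its H3K4me3 peak reaches to -1396, over both starts. Psme3, a nuclear activator, had 1159 bp of H3K4me3 and 966 bp of H3K27ac, and Psme4, which binds acetylated histones, 1382 and 1029 bp.

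Psmf1, an inhibitor of the core (chromosome 2, 151716062 to 151744199, minus strand), had 102 bp of H4K8ac and 104 bp of H3K18ac at its ends and 0 bp of the other 6 lists, and the 2 values are single peaks of minimum width. The annotated start in the promoter table lies inside the gene's span, at 151741310, and there 5 lists had peaks: 761 bp of H3K4me3, 481 bp of H4K8ac, 230 bp of H3K27ac, 206 bp of H3K23ac and 133 bp of H3K18ac. The H3K4me3 peak ran from -147 to 613 of this start. H3K9ac and H2AK5ac had no peak anywhere over its span.

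The 3 genes that match the pattern alone spanned the range. Psme3ip1, which encodes a protein that binds Psme3, had the highest H3K4me3 of all 51 genes with 1840 bp, and 1508 bp of H3K9ac, and its start lies 215 bp from that of Rspry1. Psmc3ip, a meiotic recombination factor, had 8 lists with 726 bp of H3K4me3 and 253 bp of H3K9ac. Psme2b, a copy of Psme2, had 138 bp of H3K14ac and 108 bp of H3K27ac and nothing of the other 6 lists. Reads that fit both Psme2 and Psme2b cannot be assigned with certainty, and how the authors' alignment treated them is not given in the sources used here. Without these 3 genes, 22 of 48 (45.8%) had all 8 lists.

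Most of the genes had peaks of most lists at their starts. Within 2 kb of an annotated start, H3K27ac had a peak in 42 of 43 genes (97.7%, against 60.9% of 17492 genes), H3K14ac in 42 (97.7%, against 78.4%), and H3K4me3 in 41 (95.3%, against 60.6%). H4K8ac had one in 41 (95.3%, against 63.4%), H3K18ac in 40 (93.0%, against 64.6%), H3K23ac in 38 (88.4%, against 54.9%) and H3K9ac in 37 (86.0%, against 49.8%). H2AK5ac had one in 20 (46.5%, against 35.7%), and all 8 lists in 20 (46.5%, against 29.6%). In bins of 100 bp, H3K4me3 covered on average 90.4% of the proteasome genes in the bin just before the start, against 48.5% of all genes in that bin. In the same bin H3K27ac covered 87.4% (against 45.4%), H4K8ac 83.9% (against 43.1%), H3K18ac 75.4% (against 44.2%) and H2AK5ac 15.8% (against 9.89%). H3K9ac, H3K23ac and H3K14ac were highest in the bin just after the start, with 74.1% (against 34.0%), 70.1% (against 33.7%) and 65.3% (against 35.9%).

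**Figure D4:**
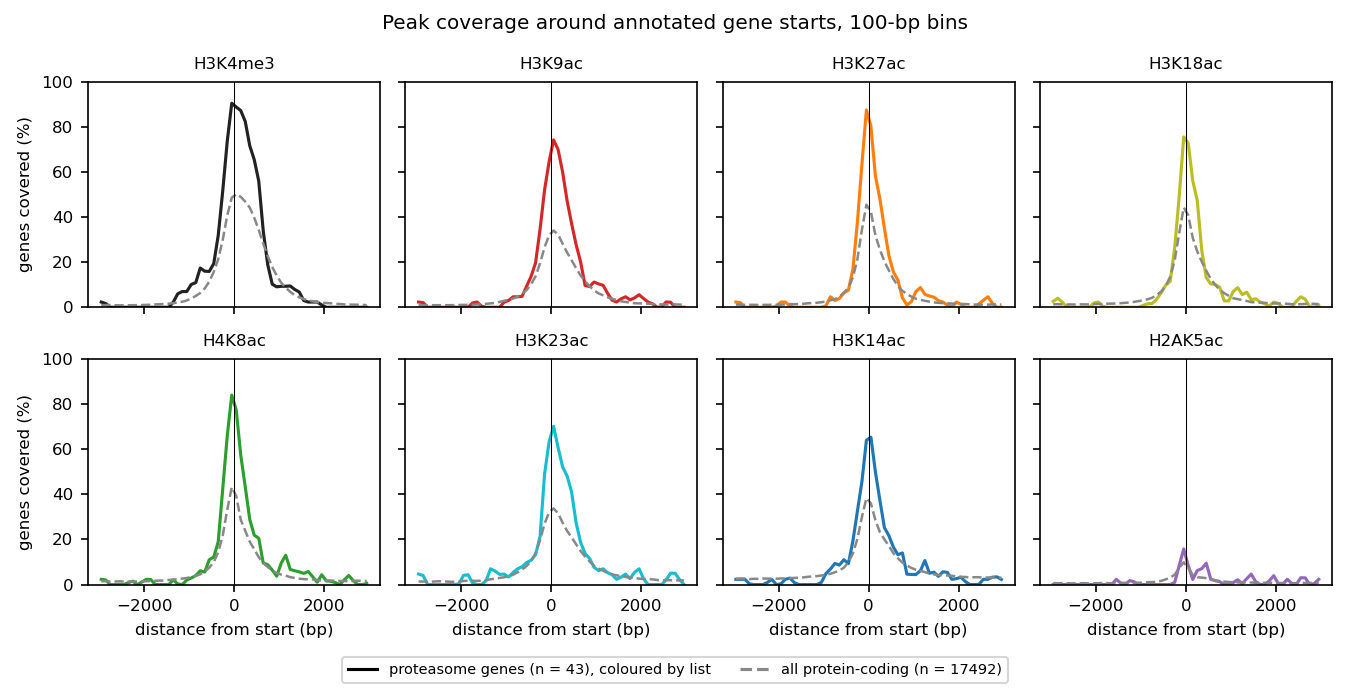
Share of genes covered by peaks (y axis, percent, averaged over 100-bp bins) by distance from the annotated start (x axis, bp), one panel per peak list. Solid lines are 43 proteasome genes and dashed lines 17492 protein-coding genes; the solid line is highest next to the start in each panel, at 90.4% for H3K4me3 and 15.8% for H2AK5ac.

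Coverage extended further into the genes than upstream of them. Within 3000 bp on either side of the start, 66.0% of the H3K9ac bases of proteasome genes lay downstream, against 61.7% over all genes, and 64.1% of the H3K23ac bases (against 61.4%). For H3K4me3 the share was 61.4% (against 65.3%), for H3K27ac 57.9% (against 55.4%) and for H4K8ac 56.5% (against 53.8%). It was 68.7% (against 49.1%) for H2AK5ac, 60.4% (against 54.9%) for H3K18ac and 58.4% (against 56.2%) for H3K14ac.

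Each list had a peak at the other end of the genes less often than at the start, though H4K8ac and H3K23ac exceeded the share of all genes there. In 33 proteasome genes long enough for separate windows, H3K4me3 had a peak at the start in 32 (97.0%, against 68.7% of 13810 genes) and at the far end in 2, Psmb3 and Psmc6. The other 31 (93.9%) had no H3K4me3 peak at the far end, against 85.0% of all genes. H3K27ac had one at the start in 32 (97.0%, against 68.8%) and at the far end in 5 (15.2%, against 22.7%). For H3K14ac the counts were 32 (97.0%, against 83.8%) and 9 (27.3%, against 50.9%). H3K9ac had 30 (90.9%, against 56.7%) and 4 (12.1%, against 12.4%), and H2AK5ac 16 (48.5%, against 40.3%) and 4 (12.1%, against 14.2%). H4K8ac was found most often at the far end, in 15 (45.5%, against 36.7%), with H3K23ac in 9 (27.3%, against 19.7%) and H3K18ac in 8 (24.2%, against 30.0%). At the starts of these 33 genes H4K8ac and H3K18ac had peaks in 32 each (97.0%, against 71.0% and 72.3%) and H3K23ac in 31 (93.9%, against 61.7%). No proteasome gene had peaks of all 8 lists at its far end, against 3.62% of all genes.

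**Figure D5:**
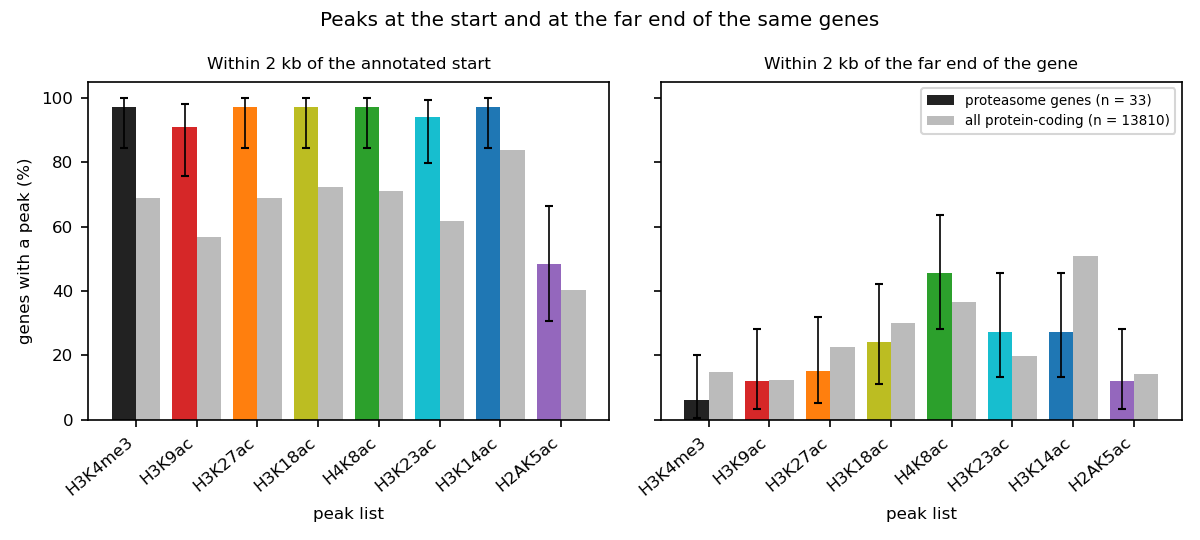
Share of genes with a peak (y axis, percent) within 2 kb of the annotated start, left, and of the far end, right, for each peak list (x axis). Coloured bars are 33 proteasome genes with exact 95% binomial intervals and grey bars 13810 protein-coding genes; H3K4me3 is at 97.0% at the start and 6.06% at the far end of the proteasome genes.

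Inside the genes, outside these windows, peaks were also less frequent for several lists. H3K14ac had such a peak in 23 of 41 proteasome genes (56.1%, against 77.8% of 17674 genes), H3K4me3 in 11 (26.8%, against 44.6%) and H3K9ac in 10 (24.4%, against 36.7%). H3K27ac had one in 20 (48.8%, against 54.9%), H2AK5ac in 14 (34.1%, against 43.8%) and H3K18ac in 23 (56.1%, against 62.7%). H4K8ac had one in 27 (65.9%, against 66.5%) and H3K23ac in 22 (53.7%, against 55.2%). The proteasome genes had a median length of 11567 bp, against 17169 bp for all protein-coding genes, and shorter genes leave less interior for a peak. The part of length in these shares was not tested.

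Neighbouring genes share some of these peaks. In 7 of the 43 genes another gene starts within 1000 bp upstream on the opposite strand, against 7.52% of 17492 genes: Psma2 with Mrpl32, Psma7 with Ss18l1, Psmb9 with Tap1, Psmc5 with Ftsj3, Psmd13 with Sirt3, Psme2 with Rnf31 and Psme3ip1 with Rspry1. Another protein-coding gene overlapped or came within reach of the windows of 36 of the 51 genes. In the 15 without such a neighbour, H3K14ac, H4K8ac and H3K4me3 each had a peak in all 15. H3K27ac and H3K23ac had one in 14 each, H3K18ac and H3K9ac in 13 each and H2AK5ac in 7, and 7 genes had all 8 lists. Neighbours of the windows were not counted over all protein-coding genes, so no share of all genes stands beside these counts.

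Promoter composition varied among the genes with a promoter sequence. CG dinucleotides numbered 2 to 41 per promoter, lowest in Psme2b with 2, in Psma6 and Psmb10 with 3 and in Psmb11 with 4. Psma6 was counted here at its first start, though its covered bases within 2 kb of annotated starts include those of its second start. The rank correlation of CG number with covered bases within 2 kb of annotated starts was 0.470 for H3K9ac, 0.466 for H3K14ac and 0.243 for H3K4me3 over the 43 genes, against 0.613, 0.514 and 0.692 over 17492 genes. It was 0.457 for H3K23ac (against 0.621), 0.342 for H3K18ac (against 0.636) and 0.336 for H3K27ac (against 0.636). For H4K8ac it was 0.298 (against 0.631) and for H2AK5ac 0.168 (against 0.396). These are descriptions across genes that share libraries, with no test.

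Genes that work with the proteasome but lie outside the name pattern are set beside it here. Of 34 names listed, 31 were matched. AI314180 and Shfm1 are older symbols of Ecpas and Sem1, which are among the 31, and Paaf1 was not matched. The 51 proteasome genes averaged 6.98 lists and 24 (47.1%) had all 8, against 7.48 lists (SD 1.36) and 23 (74.2%) in the 31 partner genes, a difference that was not tested. Nfe2l1, the factor that raises subunit genes when proteasomes are inhibited, had 1382 bp of H3K4me3, 1096 bp of H3K9ac, 1210 bp of H3K27ac and 606 bp of H2AK5ac at its ends. Pomp, which matures the core, had 1333 bp of H3K4me3, 921 bp of H3K9ac, 936 bp of H3K27ac and 129 bp of H2AK5ac. Ecpas, a proteasome adaptor, had 191 bp of H3K14ac and nothing of the other 7 lists.

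Read counts could be placed at few of these peaks. The table adds the reads of every peak that bears the same number in its list, so a count belongs to 1 place only where the identifier holds 1 peak, and such identifiers hold 1.04% (H3K23ac) to 66.3% (H3K14ac) of a library's reads. At the ends of the proteasome genes there were 74 such peaks in 32 genes, and all come from the H3K14ac list. Only the high numbers of that list, which runs in genome order, hold 1 peak, so a gene's place in the genome decides if it has such peaks. In 17 of the 32 genes they had no read in any library, a count that was not made over all genes. The libraries held 398 H3K14ac reads there (39.6 CPM, counts scaled to the library's table total, with an exact 95% Poisson interval of 35.8 to 43.7), 146 of H3K4me3 (98.8 CPM, 83.4 to 116), 80 of H3K27ac (31.6 CPM, 25.0 to 39.3) and 30 of H3K18ac (19.4 CPM, 13.1 to 27.7). Over all protein-coding genes, 32298 such peaks held 316551 H3K14ac reads, 47226 of H3K4me3, 54853 of H3K27ac and 19055 of H3K18ac. At the peaks of the proteasome genes H4K8ac had 9 reads, H3K9ac 5, H3K23ac 2 and H2AK5ac 0.

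IgG had 0 reads at these peaks, where 3 counts in its library, the smallest, equal 8.20 CPM and the exact 95% Poisson upper limit is 10.1 CPM. These peaks all come from the H3K14ac list and were selected by the enrichment of that mark, so no mark is called above IgG from them. Psme3ip1, no proteasome part, held 68 of the H3K14ac reads, 61 of 146 H3K4me3 reads, 32 of 80 H3K27ac reads and 16 of 30 H3K18ac reads, and Psmb4 held 56 of H3K14ac and none of H3K4me3. Intervals and floors cover counting error only, and amplified reads are not independent molecules. Under the authors' options a read that touches regions of more than 1 identifier was not counted, so reads are missing where peaks of several lists overlap, as at the starts of these genes.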

How the data were processed

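ACT-seq reads of 9 libraries were analysed from 1 deposited table. Per the file headers, the authors' counts were made by featureCounts 2.0.6 over regions, as raw read counts without normalization, paired-end and unstranded, with multi-overlapping reads left out. The submitters' processing notes name Trim Galore, STAR, MACS2 and the build GRCm38.p6; the sources used here do not give peak-calling settings or say if IgG entered them. The table's 578465 identifiers hold 1309635 regions, since 8 lists had been joined under shared numbers. The lists were separated so that each runs in genome order with no region under its minimum width; 0 order breaks remained. On simulated lists, smaller than the real ones and with the same minimum widths, 99.966% of 91140 regions returned to their list. Those regions lay partly on shared spots and partly at random, so the share is not the accuracy at gene starts, which was not measured. Lists carry the name of the mark to which their size is attributed, which the table does not record. Starts were read as counted from 0 and are printed counted from 1. The number of libraries per target (1) allows no test; intervals are exact binomial or Poisson at 95%. Depth runs from 365999 to 10044130 reads. Genes, starts and promoters came from RefSeq GRCm38.p6. Named genes were the catalytic subunits with their counterparts, activators, inhibitor and chaperones, the extremes of H3K4me3 in each role group, and all genes with fewer than 8 lists. The members, gene lists and alternatives were chosen with earlier results of these data known. Analysis used Python 3.11.15, NumPy 2.4.6, pandas 2.3.3, SciPy 1.17.1 and matplotlib 3.10.9.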

Additional observations from a re-analysis of the deposited data

How the results depend on the processing

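Counts of genes with a peak at their ends were recomputed for each list and for all 8 lists under 9 alternatives, and 67 of 81 values moved by less than their counting interval. The other 14 are as follows, and since each interval ended below 100%, every value of 100% is among them however small its change. With windows of 5 kb, H3K14ac and H4K8ac had peaks in 100% of the 51 genes and H3K23ac in 96.1%. Over the whole gene span H3K14ac had peaks in 100%. With peaks wider than the minimum alone, H3K14ac fell to 82.4%, H3K23ac to 74.5%, H2AK5ac to 7.84% and all 8 lists to 5.88%. The last 2 then lay below the shares of all genes, 12.7% and 9.96%, whereas in the main setting both lay above them. With at least 200 covered bases, H3K14ac was found in 84.3%, H2AK5ac in 19.6% and all 8 lists in 17.6%. In the 15 genes not near another gene, H3K14ac, H4K8ac and H3K4me3 reached 100%. In percentage points, the 2 counts that moved furthest were those of H2AK5ac and of all 8 lists. Windows of 1 kb, annotated starts alone, separation by order alone and leaving out Psmc3ip, Psme2b and Psme3ip1 moved none of the 9 counts beyond that interval. Windows of 1 kb still lowered H2AK5ac from 26 to 19 genes (51.0 to 37.3%) and all 8 lists from 24 to 18 (47.1 to 35.3%). Placeable reads were also scaled to the library's placeable reads, which put H3K4me3 at 1550 CPM and H3K14ac at 59.7 CPM. No paired analysis was possible because each target has 1 library. Limits: 1 library per target, a rebuilt assignment of peaks to lists, peaks shared with neighbouring genes, and depth, at which 3 counts of IgG equal 8.20 CPM.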
